A study of Mus musculus with 14 samples.

Results

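The cytochromes P450 of families 1 to 3 were followed across liver RNA from mice on a control diet and mice on a diet with krill powder. A probe set of the array was taken as a member when its single gene symbol began with Cyp1a, Cyp1b, Cyp2 and a letter, or Cyp3a. This gave 52 of 45101 probe sets, for 43 of 18194 genes named by 1 symbol, in 14 subfamilies. A member was marked as low in signal when its mean over all arrays lay in the lower 50% of probe sets, which is below a signal of 124. Of the members, 39 probe sets for 34 genes lay above that mark and 13 for 9 genes below it. The members nearest to the mark were Cyp3a44, Cyp2c65 and Cyp2j9 above it, with means of 147, 149.97 and 179, and Cyp1b1, Cyp2d34 and Cyp2b19 below it, with means of 113, 111 and 97.8.

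The 14 animals were male CBA/J mice, an inbred strain, kept singly and fed a purified AIN93M diet at 84 kcal per week. At 2 months of age 7 mice were put on the control diet and 7 on the test diet with krill powder extract, and livers were taken 3 months later, at 5 months of age. Both diets held the same total protein and total lipid, with different amino acids and fatty acids. Each array holds the liver RNA of 1 mouse, so p-values cover the variation of mice and of arrays at once, and the number of arrays limits the precision. In whole liver RNA, fewer cells of a type and less RNA per cell cannot be told apart.

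Cytochromes P450 are membrane-bound haem enzymes of the endoplasmic reticulum that insert oxygen into lipophilic substrates. Families 1 to 3 clear most drugs and environmental chemicals, and hepatocytes are their main site. Family 1 is driven by the aryl hydrocarbon receptor, many Cyp2b and Cyp2c genes by the receptor CAR and Cyp3a genes by the receptor PXR. Cyp2c and Cyp2j enzymes also make epoxides of polyunsaturated fatty acids, and several Cyp2 and Cyp3a genes differ between the sexes in mouse liver.

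With the values as deposited, the members were called in both directions on the krill diet, and closely related genes were called in opposite directions. Folds here are on the log2(signal + 16) scale. Cyp2d22 was 8.23-fold lower, Cyp1a2 4.49-fold, Cyp2d13 3.88-fold and Cyp2c39 3.03-fold lower. Cyp2c55 was 3.07-fold higher, and the strongly hybridising Cyp2d10, Cyp3a11 and Cyp2c50 were 1.75-fold, 1.74-fold and 1.72-fold higher. Under quantile normalization, which gives all arrays the same distribution of values, Cyp2d10, Cyp3a11 and Cyp2c50 did not pass. There 0 probe sets of Cyp2d and Cyp3a were called higher, while in Cyp2c 3 were higher and 6 lower. Of the 39 probe sets above the mark, 9 rose, 16 fell and 14 did not pass (limma, adjusted p under 0.05 over 22518 probe sets). Over all tested probe sets 20.8% rose and 25.2% fell, 46.0% in all, against 23.1% and 41.0% of the members, 64.1% in all; 2 of the 9, Cyp2c65 and Cyp3a44, were above the mark through their krill arrays alone. The median log2 change was -0.33 over the members and -0.003 over all tested probe sets. Centring each array on its median, which moves all log2 changes by -0.40, gave 4 higher and 18 lower members, with 9.14% and 34.1% of all tested probe sets called. Scaling on the hybridisation spike-ins, which moves them by -0.79, gave 2 and 23, with 3.14% and 50.2% of all. The diets did not overlap in 7 members that fell and in 1 that rose, where 7.88% and 5.24% of all tested probe sets were so.

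**Figure D1:**
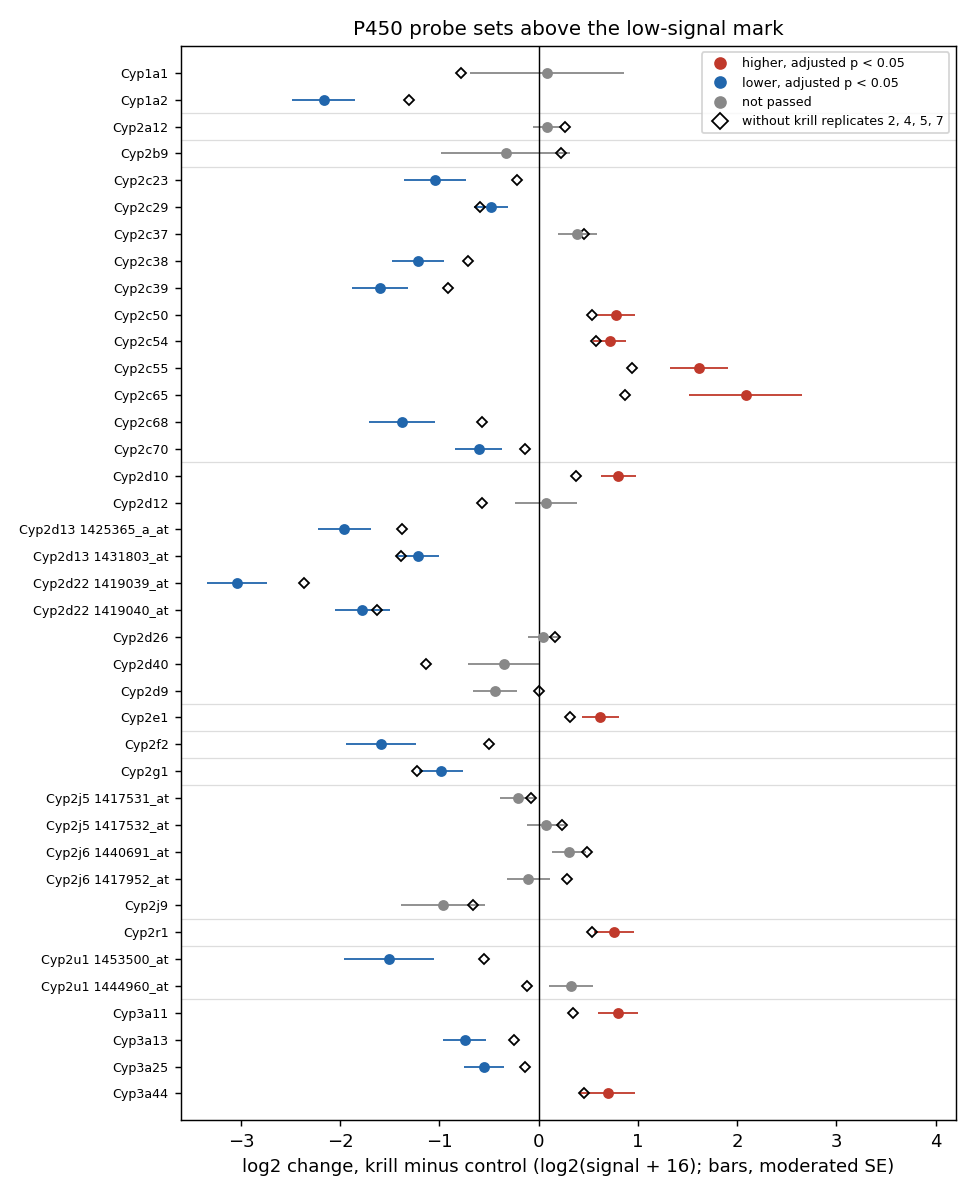
Log2 change, krill minus control, of the 39 P450 probe sets above the low-signal mark (x axis, log2(signal + 16); points, limma estimates from 7 arrays per diet; bars, moderated SE), grouped by subfamily. Filled points are coloured by the adjusted p, and open diamonds give the estimate without krill replicates 2, 4, 5 and 7; Cyp2d22 lies farthest to the left at -3.04 and Cyp2c65 farthest to the right at 2.09.

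Technical measures of the arrays moved with the diet too. The 3' to 5' signal ratio of a control gene rises as RNA is shortened. For pyruvate carboxylase it ran from 4.49 to 10.7 in control and from 11.6 to 25.7 in krill arrays. For actin it ran from 1.78 to 2.44 and from 2.48 to 3.79. For GAPDH the diets overlapped, with 0.75 to 0.90 in control and 0.75 to 1.69 in krill arrays. The hybridisation spike-ins of krill replicates 2, 4, 5 and 7 read from 14.13 to 14.35 on the log2 scale, above the 12.60 to 13.23 of control arrays and the 12.93 to 13.18 of krill replicates 1, 3 and 6. Without krill replicates 2, 4, 5 and 7, 5 members were higher and 11 lower, 4 and 10 of them among those called with all arrays, while 9.99% and 20.0% of all probe sets were called higher and lower. Once the spike-in level was a term of the model, 0 members were called higher and 8 lower. Over all probe sets 5.05% and 10.4% were called, 15.4% in all. An unadjusted limma p under 0.05 was reached by 15 of 39 members and by 6812 of all 22518 tested probe sets. The 3'/5' index did not overlap between the diets, and with it in the model limma called 0 members and 0.0% of all probe sets. In that fit 6 of 39 members and 3241 of all 22518 tested probe sets had an unadjusted p under 0.05. All 6 members were lower. Of the 25 members called with all arrays 23 kept their sign, which is no test, since the same arrays gave those calls. The part of RNA quality in the members' changes was not tested beyond these fits.

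All 6 hepatocyte markers on the table were above the mark, with a summed signal of 262760 to 380643 in control and 328574 to 626105 in krill arrays. Of these Alb, Apoa1 and Ttr were called higher, at 0.53, 0.76 and 0.86, and Tat, an amino acid transaminase, lower at -1.86. Without krill replicates 2, 4, 5 and 7 they stood at 0.37, 0.26, 0.33 and -0.64, and none of the 4 passed. With quantile normalization Alb, Apoa1 and Ttr stood at -0.15, -0.04 and 0.09 and did not pass. In that fit Tat, Fga and Cps1 were called lower, at -1.90, -0.84 and -0.54. Of the cholangiocyte, lymphocyte and adipocyte markers 1 of 4, 2 of 5 and 0 of 2 were above the mark. Of 6 Kupffer, 6 endothelial and 6 stellate cell markers 5 each were above it, and 2, 1 and 2 of them rose while 1 of each fell. The summed signal of the exocrine pancreas list was 2668 to 5136 in control and 6181 to 19302 in krill arrays, without overlap. It was carried by Cela1, with Cpa1 below the mark. Prss2, above the mark, overlapped between the diets and did not pass, at 0.67 (limma adjusted p = 0.0565). Of 3 kidney markers Umod and Slc12a1 were below the mark, and Kap was called higher at 0.94. Kap passed the mark through its krill arrays alone, with a mean of 102 in control and 227 in krill arrays. It stood at 0.45 (limma adjusted p = 0.431) without krill replicates 2, 4, 5 and 7. With quantile normalization it stood at 0.68 (limma adjusted p = 0.0545). The part of other tissues or cell types in the members' changes was not tested.

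In family 1, Cyp1a2, the liver enzyme that oxidises caffeine and aromatic amines, fell. Its signal ran from 10751 to 20701 (median 13785) in control and from 1283 to 7779 (median 2862) in krill livers. No krill array reached the lowest control, and the log2 change was -2.17 (moderated SE 0.32, limma adjusted p = 6.48e-05). Krill replicates 1, 3 and 6 read 4995 to 7779, still below all controls, and the other krill arrays 1283 to 2862; without krill replicates 2, 4, 5 and 7 the change was -1.31 (limma adjusted p = 0.00111).

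Cyp1a1, the inducible family member that the liver keeps low without an aryl hydrocarbon receptor ligand, gave a signal of 41.3 to 77.2 in 6 control arrays and 4638 in control replicate 5. In krill livers it ran from 39.8 to 282, with 39.8 to 76.1 in replicates 1, 3 and 6. The diets overlapped and no change was called, at 0.088 (limma adjusted p = 0.935). In the same control array Cyp1a2 read 18679.5, within the range of the other controls. The 3 probe sets of Cyp1b1, an enzyme mostly found outside the liver, were all low in signal, with values up to 291 on any array.

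**Figure D2:**
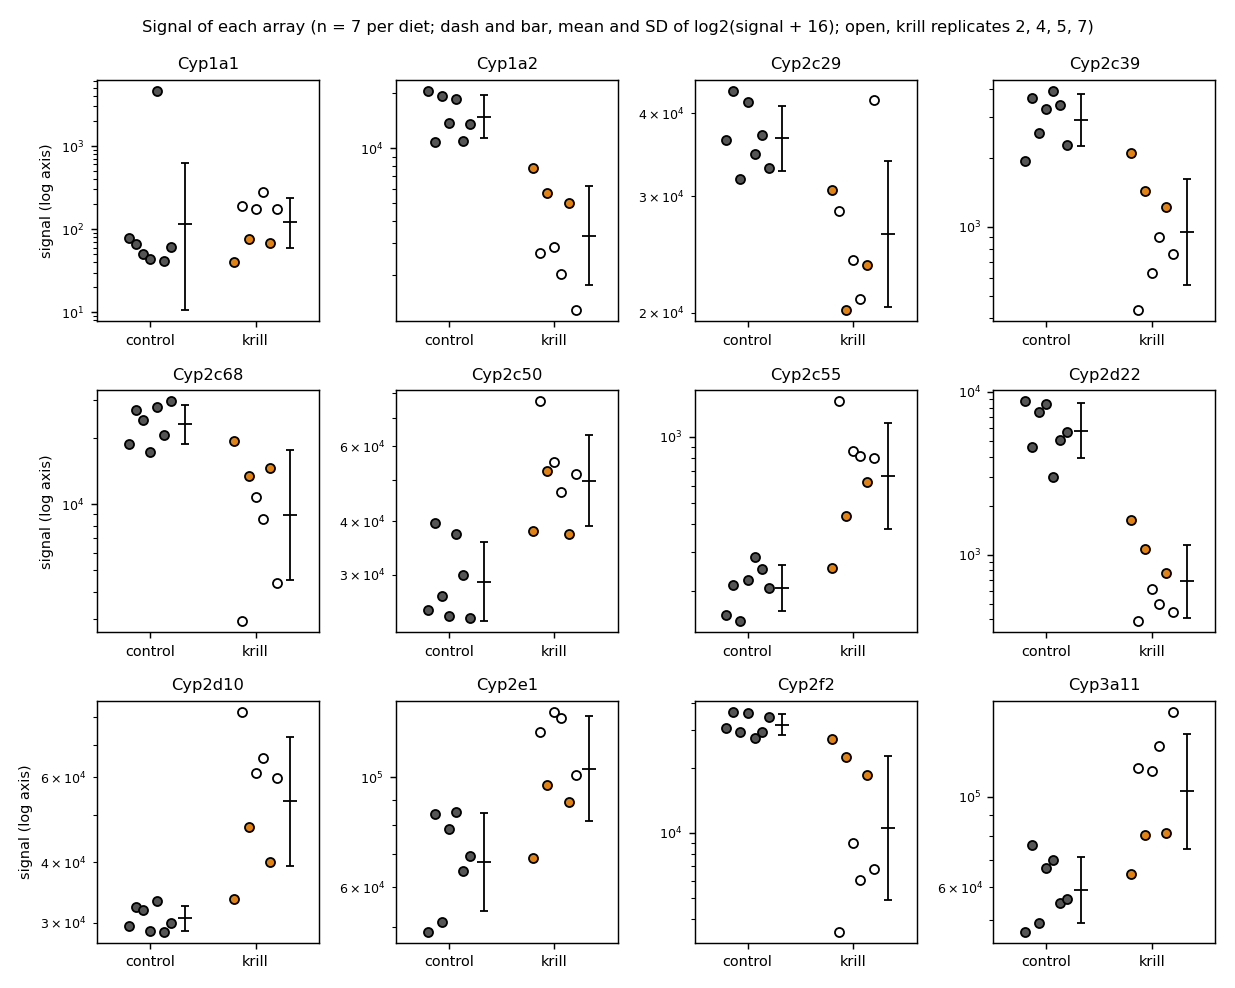
Signal of 12 P450 genes in each array on log axes (control, 7 arrays; krill, 7 arrays; dash and bar, mean and SD of log2(signal + 16), drawn back on the signal scale; open circles, krill replicates 2, 4, 5 and 7). The diets do not overlap for Cyp1a2, Cyp2d22, Cyp2d10 and Cyp2f2, and control replicate 5 stands alone for Cyp1a1 at 4638.

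In the Cyp2c subfamily, whose enzymes oxidise drugs and make fatty acid epoxides, all 11 probe sets lay above the mark; 4 rose, 6 fell and 1 did not pass. The rising genes were Cyp2c55, Cyp2c65, Cyp2c50 and Cyp2c54, and the falling ones Cyp2c39, Cyp2c68, Cyp2c38, Cyp2c23, Cyp2c70 and Cyp2c29. The median log2 change was -0.48, and -0.14 without krill replicates 2, 4, 5 and 7, where 3 of the 4 stayed higher and 3 of the 6 stayed lower.

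Cyp2c39, a retinoic acid hydroxylase, had signals from 1938 to 3913 (median 3267) in control and from 431 to 2086 (median 905) in krill livers. The highest krill array reached just into the control range, and the log2 change was -1.60 (moderated SE 0.28, limma adjusted p = 0.000256). Its neighbour Cyp2c38, an arachidonic acid oxygenase, changed by -1.21 (moderated SE 0.26, limma adjusted p = 0.00121), with 2792 ± 1050.0 on the control diet and 1199.7 ± 457 on krill (mean ± SD, n = 7 each). Without krill replicates 2, 4, 5 and 7 Cyp2c39 stood at -0.91 and Cyp2c38 at -0.71, where Cyp2c38 no longer passed (limma adjusted p = 0.0565).

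Cyp2c68 ran from 17441 to 29529.6 (median 24172) in control and from 2932 to 19459.5 (median 10836) in krill livers, a log2 change of -1.38 (moderated SE 0.33, limma adjusted p = 0.00283). The fall was deepest in krill replicates 2, 4, 5 and 7, at 2932 to 10836, against 13417 to 19459.5 in the other krill arrays; without the former it stood at -0.57 (limma adjusted p = 0.0291). Cyp2c23, an epoxygenase of kidney and liver also known as Cyp2c44, changed by -1.04 (moderated SE 0.31, limma adjusted p = 0.0117), and Cyp2c70, which makes the muricholic acids of mouse bile, by -0.60 (moderated SE 0.23, limma adjusted p = 0.042). Neither passed without krill replicates 2, 4, 5 and 7, where they stood at -0.21 and -0.14. The Cyp2c70 call also ended without any 1 of 9 arrays, control replicates 1, 2, 3 and 7 and krill replicates 2, 3, 4, 5 and 7 (largest limma adjusted p = 0.0978).

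Cyp2c29, an abundant epoxygenase and a target of the receptor CAR, ran from 31856 to 43286 (median 36497) in control and from 20164 to 41883 (median 24057) in krill livers. Its log2 change was -0.48 (moderated SE 0.17, limma adjusted p = 0.0271). One krill array, replicate 7, read 41883, within the control range, and the other 6 lay below all controls. The change was -0.59 without krill replicates 2, 4, 5 and 7 and -0.96 with quantile normalization, which gives all arrays the same distribution of values; the call ended without any 1 of control replicates 2 and 4 and krill replicates 3, 4 and 5 (largest limma adjusted p = 0.0595).

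Among the rising genes Cyp2c55, a P450 of the gut that is low in untreated liver, ran from 146 to 283 (median 212) in control and from 253 to 1444 (median 803) in krill livers. Of the krill arrays 6 lay above every control array, and the log2 change was 1.62 (moderated SE 0.29, limma adjusted p = 0.000299), 0.95 without krill replicates 2, 4, 5 and 7 and 1.72 with quantile normalization. Cyp2c65, also a gut P450, ran from 2.41 to 107 (median 37.6) in control and from 34.8 to 504 (median 295) in krill livers. It passed the signal mark through the krill arrays alone and so had to differ; its change was 2.09 (moderated SE 0.57, limma adjusted p = 0.0066), and without krill replicates 2, 4, 5 and 7 it stood at 0.87 (limma adjusted p = 0.326). Of the intestine markers on the table Vil1 and Lct were below the mark, and the summed signal of the list, nearly all of it from Fabp2, was 10611 to 20749 in control and 20497 to 65976 in krill arrays. The part of gut tissue in the signals of Cyp2c55 and Cyp2c65 was not tested.

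Cyp2c50 and Cyp2c54, a pair of near-identical liver genes, rose together. Cyp2c50 gave 29482 ± 6598 on the control diet and 51093 ± 13157 on krill (mean ± SD, n = 7 each), a log2 change of 0.78 (moderated SE 0.18, limma adjusted p = 0.0024). Cyp2c54 gave 19846 ± 3811 on the control diet and 32652 ± 6757 on krill (mean ± SD, n = 7 each), a change of 0.72 (moderated SE 0.16, limma adjusted p = 0.0021). Their sequences are close enough that the probe sets may share signal. Under quantile normalization the changes were 0.20 (limma adjusted p = 0.151) and 0.32 (limma adjusted p = 0.0196), and with scaling on the spike-ins they turned to -0.0032 and -0.072. Cyp2c37, from the same end of the cluster, stood at 0.39 (limma adjusted p = 0.107).

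Along the chromosome, by the gene order of assembly GRCm38.p6, the rising and falling genes of Cyp2c lay in stretches. Cyp2c55 and Cyp2c65 stand first and were higher. Cyp2c29, Cyp2c39, Cyp2c38 and Cyp2c68 follow and were lower. Cyp2c54 and Cyp2c50 were higher, and Cyp2c70, next to them, and the more distant Cyp2c23 were lower. Cyp2c66, Cyp2c67, Cyp2c40 and Cyp2c69 have no probe set with a single symbol here and were not analysed.

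**Figure D3:**
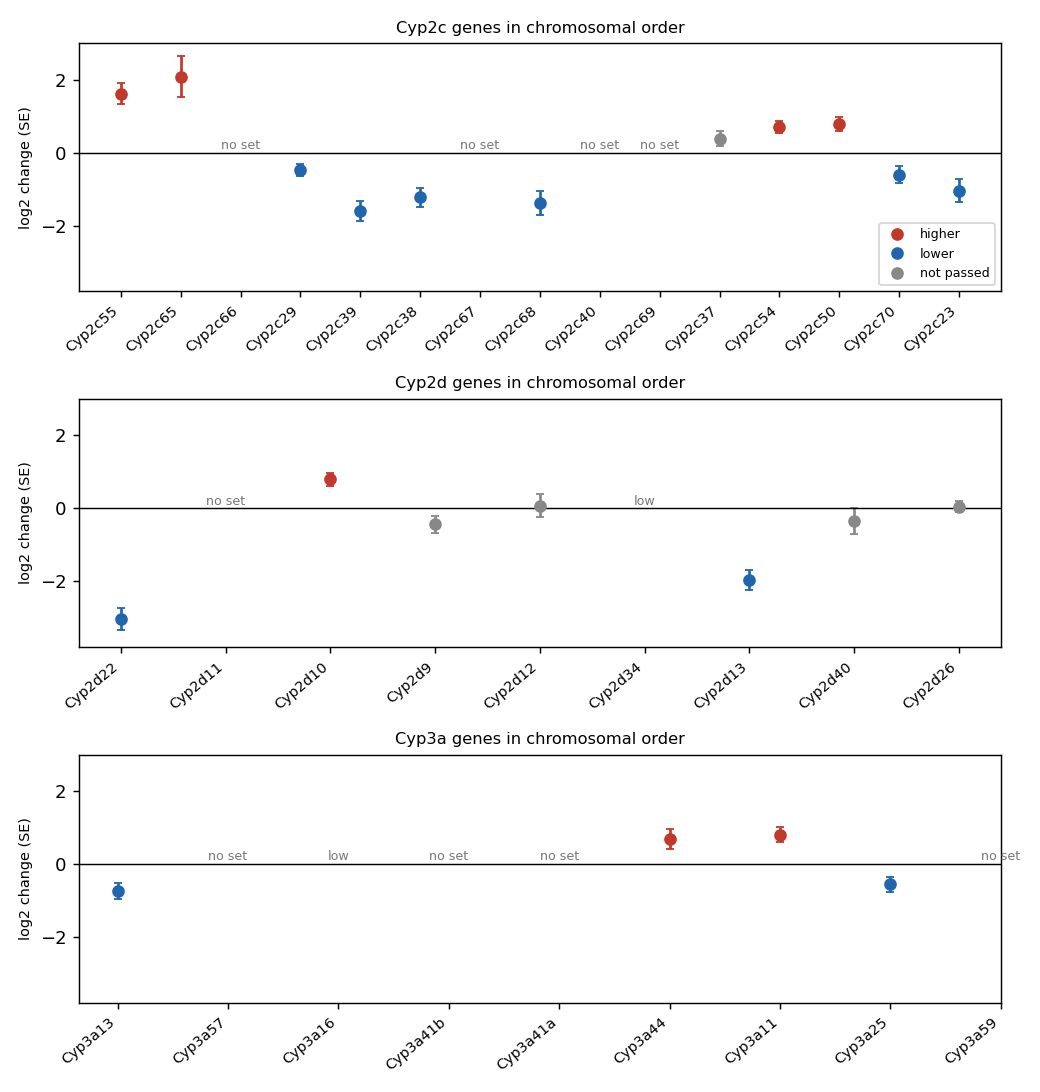
Log2 change with its SE (y axis) of the Cyp2c, Cyp2d and Cyp3a genes in their chromosomal order (x axis, order only; each gene by its probe set with the highest mean; low, low signal; no set, no probe set with this single symbol). With the values as deposited, genes called higher and lower lie beside or near each other in each subfamily. An example is Cyp2d22 at -3.04 and Cyp2d10 at 0.80. With quantile normalization 0 probe sets of Cyp2d and Cyp3a were called higher.

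In the Cyp2d subfamily, the relatives of the human debrisoquine hydroxylase, 1 of 9 probe sets above the mark rose, 4 fell and 4 did not pass. Both probe sets of Cyp2d22 and both of Cyp2d13 fell, and Cyp2d10 rose. The median log2 change was -0.44, and -1.13 without krill replicates 2, 4, 5 and 7, where 1 was higher and 5 lower, the same 4 among them.

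Cyp2d22, regarded as the mouse counterpart of human CYP2D6, ran from 2999 to 8731 (median 5641) in control and from 390.2 to 1639 (median 614) in krill livers. No krill array reached the lowest control, and the log2 change was -3.04 (moderated SE 0.30, limma adjusted p = 8.24e-06). Its second probe set ran from 2201 to 5949 (median 4044) in control and from 745 to 2066 (median 1038) in krill livers, again with no overlap, and changed by -1.78 (moderated SE 0.28, limma adjusted p = 0.000109). Krill replicates 1, 3 and 6 read 766 to 1639 and 745 to 1764 in these probe sets, below all controls, and without krill replicates 2, 4, 5 and 7 the changes were -2.36 and -1.63. Both kept their calls with the spike-in level as a covariate, at -2.23 and -1.55 (limma adjusted p = 0.000895 and 0.00958).

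The probe sets of Cyp2d13, listed by RefSeq as a transcribed pseudogene, did not overlap between diets either. They changed by -1.96 (moderated SE 0.27, limma adjusted p = 4.21e-05) and -1.21 (moderated SE 0.21, limma adjusted p = 0.000271), and by -1.38 and -1.38 without krill replicates 2, 4, 5 and 7. The first gave 2284 ± 517 on the control diet and 638 ± 401 on krill (mean ± SD, n = 7 each), and the second 1244 ± 297 on the control diet and 538 ± 162 on krill (mean ± SD, n = 7 each).

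Cyp2d10 ran from 28707 to 33287 (median 30013) in control and from 33549.8 to 81769 (median 59785) in krill livers, with every krill array above every control array, a log2 change of 0.80 (moderated SE 0.18, limma adjusted p = 0.00173). The krill arrays spread widely, from 33549.8 to 47222 in replicates 1, 3 and 6 to 59785 to 81769 in the others, and without krill replicates 2, 4, 5 and 7 the change was 0.38 (limma adjusted p = 0.0384). With quantile normalization it was 0.16 (limma adjusted p = 0.189). Cyp2d9, the male-biased steroid hydroxylase that stands next to it, was 39711 ± 3449 on the control diet and 31354 ± 11826 on krill (mean ± SD, n = 7 each) and stood at -0.44 (limma adjusted p = 0.112), and at 0.0058 without krill replicates 2, 4, 5 and 7; without krill replicate 3 it was called lower at -0.57 (limma adjusted p = 0.038), and with quantile normalization at -0.90 (limma adjusted p = 0.0031). Cyp2d26, Cyp2d12 and Cyp2d40 stood at 0.048, 0.074 and -0.35 and missed the threshold (adjusted p in limma from 0.444 to 0.857); without krill replicates 2, 4, 5 and 7 Cyp2d40 was lower at -1.13 (limma adjusted p = 0.0257).

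The promoters of Cyp2d10 and Cyp2d9 are shown because the genes are neighbours with different calls (Cyp2d10 higher and Cyp2d9 not passed as deposited, Cyp2d10 not passed and Cyp2d9 lower with quantile normalization), and the sequences align at 83.3% identity (255 of 306 aligned positions). They are given 5′ to 3′ on the strand of the gene, from 250 bases before to 50 bases after the annotated start (RefSeq, GRCm38.p6; Cyp2d10, chr15:82407145-82407444, minus strand; Cyp2d9, chr15:82452127-82452426, plus strand). Capitals mark bases that differ from the other promoter or have no partner in it, 45 in each.
Cyp2d10: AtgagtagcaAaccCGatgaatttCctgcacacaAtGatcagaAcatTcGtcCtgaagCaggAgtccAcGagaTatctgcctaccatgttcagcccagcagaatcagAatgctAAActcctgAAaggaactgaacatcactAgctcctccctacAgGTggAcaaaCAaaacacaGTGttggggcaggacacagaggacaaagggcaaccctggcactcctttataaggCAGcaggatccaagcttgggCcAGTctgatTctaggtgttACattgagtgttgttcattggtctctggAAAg
Cyp2d9: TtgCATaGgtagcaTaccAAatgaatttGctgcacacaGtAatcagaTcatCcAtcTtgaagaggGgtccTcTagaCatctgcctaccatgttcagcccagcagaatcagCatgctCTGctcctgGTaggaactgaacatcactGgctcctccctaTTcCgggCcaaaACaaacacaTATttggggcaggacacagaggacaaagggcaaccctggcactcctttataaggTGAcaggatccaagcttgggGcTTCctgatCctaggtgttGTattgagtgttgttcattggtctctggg
Among the 27 genes with a promoter in the table the closest pair was Cyp2c37 and Cyp2c50, at 86.6%, of which Cyp2c50 was called higher. Cyp2c39 and Cyp2c38, both lower, followed Cyp2d10 and Cyp2d9 at 78.1%, and Cyp3a44 and Cyp3a11, both higher, stood at 71.8%.

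In the Cyp3a subfamily, which clears a large share of drugs and steroids, 2 of 4 probe sets above the mark rose and 2 fell. Cyp3a11, the main Cyp3a of mouse liver and a target of PXR, ran from 46720.1 to 76057 (median 56297) in control and from 64670.0 to 161015 (median 115388) in krill livers. Krill replicates 1, 3 and 6, at 64670.0 to 81650.1, overlapped the controls, and the others, at 115388 to 161015, lay above them. The log2 change was 0.80 (moderated SE 0.20, limma adjusted p = 0.00385), 0.35 (limma adjusted p = 0.132) without krill replicates 2, 4, 5 and 7 and 0.041 (limma adjusted p = 0.726) with quantile normalization.

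Cyp3a25, its neighbour, went the other way, from 38231 to 55500.5 (median 43381) in control and from 19779 to 45054 (median 37244) in krill livers. Its change of -0.55 (moderated SE 0.20, limma adjusted p = 0.0317) was -0.14 (limma adjusted p = 0.517) without krill replicates 2, 4, 5 and 7, and the call ended without any 1 of control replicates 2, 4 and 5 and krill replicates 2, 4 and 5 (largest limma adjusted p = 0.0736). Cyp3a13, a Cyp3a of liver and gut, gave 2145 ± 404 on the control diet and 1333 ± 527 on krill (mean ± SD, n = 7 each), a change of -0.75 (moderated SE 0.22, limma adjusted p = 0.0101), and stood at -0.25 (limma adjusted p = 0.363) without krill replicates 2, 4, 5 and 7. None of the 4 Cyp3a probe sets passed in that fit.

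Cyp3a44, a female-biased gene, was called higher at 0.69 (moderated SE 0.28, limma adjusted p = 0.0492) on a dim signal of 108 ± 32.9 on the control diet and 186 ± 69.6 on krill (mean ± SD, n = 7 each). Its control mean lay below the mark, its sign turned to -0.093 with scaling on the spike-ins, and its call held without control replicate 2, krill replicate 1 or krill replicate 3 and ended without any other 1 array (largest limma adjusted p = 0.108). A probe set shared by the female-biased Cyp3a41a and Cyp3a41b, left out of the members for its 2 symbols, changed by 0.99 (moderated SE 0.31, limma adjusted p = 0.0144), and by 0.23 (limma adjusted p = 0.577) without krill replicates 2, 4, 5 and 7. Of the 7 female-biased P450 genes listed for the comparison 4 were on the table under a single symbol and 2 were tested, Cyp3a44 and Cyp2b9.

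Promoters of Cyp3a11 and Cyp2c68, called in opposite directions with the values as deposited, are shown because both hold CAAAGTCCA. This is a binding sequence of the hepatocyte factor HNF4 alpha, here in capitals and on the gene's own strand. They cover 250 bases before to 50 bases after the start (RefSeq, GRCm38.p6; Cyp3a11, chr5:145879805-145880104, minus strand; Cyp2c68, chr19:39741052-39741351, minus strand).
Cyp3a11: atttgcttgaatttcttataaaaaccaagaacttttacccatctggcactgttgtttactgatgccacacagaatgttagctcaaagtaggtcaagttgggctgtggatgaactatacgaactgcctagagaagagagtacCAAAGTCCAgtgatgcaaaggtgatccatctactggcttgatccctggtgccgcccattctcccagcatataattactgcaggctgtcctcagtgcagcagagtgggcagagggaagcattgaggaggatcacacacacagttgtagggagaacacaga
Cyp2c68: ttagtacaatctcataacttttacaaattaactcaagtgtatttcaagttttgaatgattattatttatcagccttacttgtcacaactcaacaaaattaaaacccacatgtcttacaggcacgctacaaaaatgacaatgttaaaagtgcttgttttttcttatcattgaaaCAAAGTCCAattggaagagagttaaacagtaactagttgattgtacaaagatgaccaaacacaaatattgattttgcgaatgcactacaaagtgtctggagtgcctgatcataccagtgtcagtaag
Searched on both strands, CAAAGTCCA was found in 4 of 29 promoters of 27 member genes (13.8%) and in 0.475% of 32851 promoters of the same length. The other genes with it were Cyp2c65, called higher, and Cyp2c70, called lower. The nuclear receptor half-site AGGTCA was in 37.9% of the members' promoters and 16.3% of all, and the TATA box TATAAA in 58.6% and 13.6%. GCGTG, the core bound by the aryl hydrocarbon receptor, was in 13.8% and 32.4%, and among family 1 genes in the promoter of Cyp1a1. The D-box TTATGTAA and the STAT5 element TTCNNNGAA were in 0 of these 29 windows and in 0.938% and 8.3% of all. A match here is a match of letters and not a measured site. The 29 promoters belong to members above the signal mark, and some are alike in sequence. They are therefore not independent, and their shares were not tested against those of all promoters.

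Cyp2e1 and Cyp2f2, enzymes of opposite liver zones, were called in opposite directions. Cyp2e1, the ethanol-oxidising P450 of pericentral hepatocytes, ran from 48833 to 85057 (median 69405) in control and from 68689 to 135047 (median 100767) in krill livers. The diets overlapped and the log2 change was 0.62 (moderated SE 0.19, limma adjusted p = 0.012); it was 0.31 (limma adjusted p = 0.236) without krill replicates 2, 4, 5 and 7, and turned to -0.10 (limma adjusted p = 0.407) with quantile normalization and to -0.16 with scaling on the spike-ins. With no signal filter it did not pass (limma adjusted p = 0.0592). Cyp2f2, the naphthalene-activating P450 of periportal hepatocytes, ran from 27494 to 36204 (median 30689.5) in control and from 3469.8 to 27166 (median 8987) in krill livers. All krill arrays lay under the lowest control, with 18580.1 to 27166 in krill replicates 1, 3 and 6 and 3469.8 to 8987 in the others, and the change was -1.59 (moderated SE 0.36, limma adjusted p = 0.00174), or -0.50 (limma adjusted p = 0.0186) without the latter. Cyp1a2 and Cyp2c29, pericentral like Cyp2e1, were both called lower.

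Differences between genes within an array do not move with a common scaling of that array, apart from the pseudocount. The log2 signal of Cyp2d10 minus that of Cyp2d22 was 2.40 ± 0.61 on the control diet and 6.25 ± 1.15 on krill (mean ± SD, n = 7 each). For Cyp2e1 minus Cyp1a2 it was 2.17 ± 0.64 on the control diet and 4.96 ± 1.17 on krill (mean ± SD, n = 7 each), and for Cyp2c50 minus Cyp2c68 0.31 ± 0.31 on the control diet and 2.47 ± 1.29 on krill (mean ± SD, n = 7 each). For Cyp3a11 minus Cyp3a25 it was 0.39 ± 0.097 on the control diet and 1.74 ± 0.85 on krill (mean ± SD, n = 7 each). In each of these pairs, chosen for their opposite calls and so given with no test, the diets did not overlap. The choice of the pairs fixed the direction of these differences, which are a description of the arrays.

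**Figure D4:**
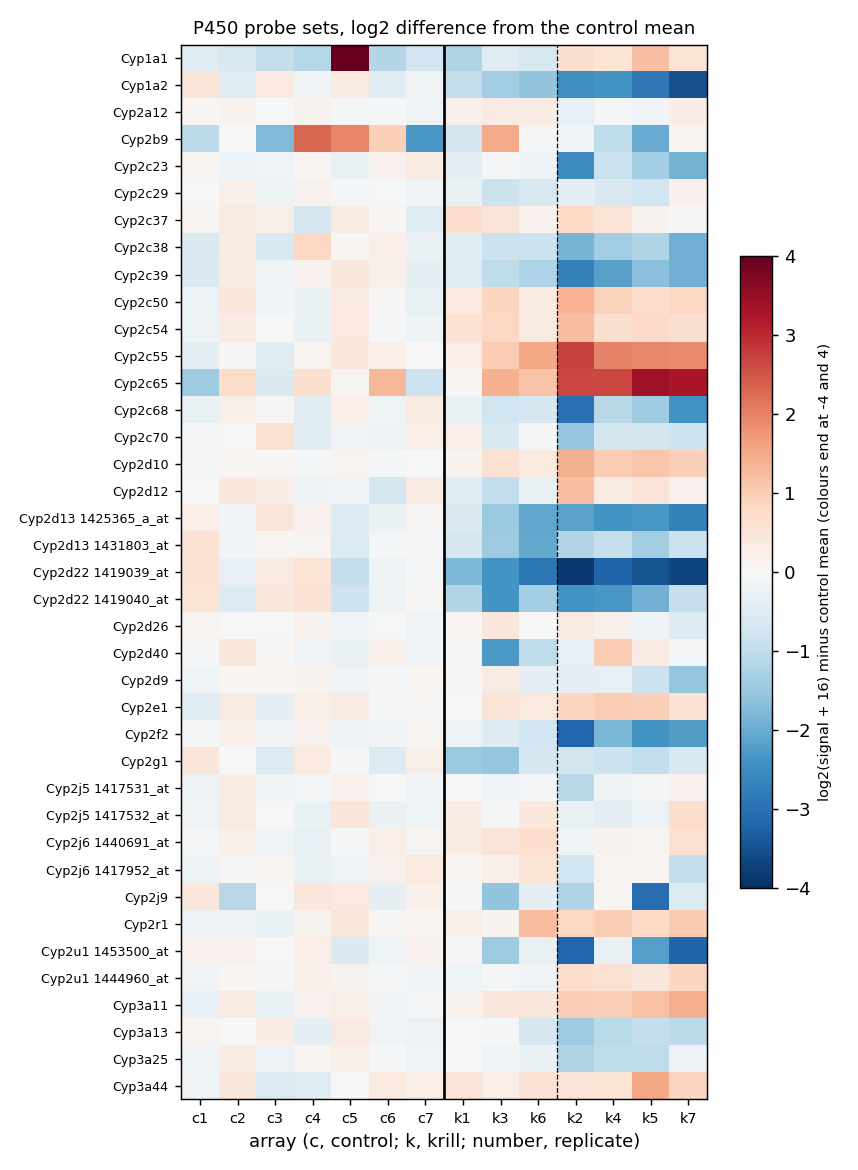
Difference of each array from the control mean, in log2(signal + 16) units (colour scale from -4 to 4), for the 39 P450 probe sets above the mark (rows) and 14 arrays (columns; the solid line parts control from krill, the dashed line krill replicates 1, 3 and 6 from 2, 4, 5 and 7). Cyp2d22, Cyp2d13, Cyp1a2 and Cyp2g1 are below the control mean in every krill array, and for Cyp2f2 and Cyp2c68 the columns of krill replicates 2, 4, 5 and 7 are deeper in colour than those of 1, 3 and 6.

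Of the subfamilies with few members, Cyp2g1, an olfactory P450, was lower with no overlap, from 309 to 655 (median 466) in control and from 149 to 293 (median 244) in krill livers. Its change was -0.99 (moderated SE 0.22, limma adjusted p = 0.00187), and -1.23 without krill replicates 2, 4, 5 and 7. Cyp2r1, the vitamin D hydroxylase of the liver, was higher, with 286 ± 57.1 on the control diet and 505 ± 137 on krill (mean ± SD, n = 7 each), at 0.76 (moderated SE 0.20, limma adjusted p = 0.00591); it stood at 0.54 (limma adjusted p = 0.113) without krill replicates 2, 4, 5 and 7 and turned to -0.027 with scaling on the spike-ins. The 2 probe sets of Cyp2u1, a fatty acid hydroxylase, disagreed: the brighter changed by -1.51 (moderated SE 0.45, limma adjusted p = 0.0119), and stood at -0.55 (limma adjusted p = 0.145) without krill replicates 2, 4, 5 and 7, and the other stood at 0.32 (limma adjusted p = 0.239). Cyp2a12, a steroid hydroxylase of the liver, stood at 0.088 (limma adjusted p = 0.634), with 20974 ± 1709.5 on the control diet and 22511 ± 3738 on krill (mean ± SD, n = 7 each). A probe set shared by Cyp2a5, the coumarin hydroxylase, and the female-biased Cyp2a4, not a member, stood at -0.23 (limma adjusted p = 0.339).

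In Cyp2j, whose enzymes make epoxides of arachidonic and omega-3 fatty acids, 0 of 5 probe sets above the mark passed in limma, and 1, that of Cyp2j9, had an unadjusted p under 0.05. The probe sets of Cyp2j5, the main Cyp2j of liver and kidney, stood at -0.21 and 0.075, those of Cyp2j6 at 0.31 and -0.10, and that of Cyp2j9 at -0.96 (adjusted p in limma from 0.0688 to 0.768). Without 1 of control replicate 2, krill replicate 1 and krill replicate 4, Cyp2j9 was called lower, at -1.15, -1.11 and -1.13 (limma adjusted p = 0.0373, 0.036 and 0.0432). The brighter Cyp2j5 probe set was 21485 ± 2912 on the control diet and 19035 ± 4447 on krill (mean ± SD, n = 7 each), and krill replicate 2, at 9822, stood below the 18441 to 24166 of the other krill arrays. Without krill replicates 2, 4, 5 and 7 the brighter Cyp2j6 probe set was called higher at 0.49 (limma adjusted p = 0.0327). With quantile normalization it was called higher at 0.50 (limma adjusted p = 0.015). There the brighter Cyp2j5 probe set was called lower at -0.51 (limma adjusted p = 0.0192).

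In Cyp2b, with 1 of 6 probe sets above the mark, the female-biased Cyp2b9 varied widely within each diet, from 49.4 to 1596 (median 306) in control and from 65.3 to 909 (median 289.9) in krill livers, and stood at -0.33 (limma adjusted p = 0.693). The 3 probe sets of Cyp2b10, the standard reporter of CAR activation, were low in signal in both diets, at most 152 on any array. In all, the 13 low-signal members, for Cyp1b1, Cyp2b10, Cyp2b13, Cyp2b19, Cyp2d34, Cyp2j11, Cyp2j13, Cyp2s1 and Cyp3a16, had array values from 0.745 to 291, and the krill mean was the higher in 13 of 13. Tested without a filter, their median log2 change was 0.68, that of all 22519 low-signal probe sets 0.53, and 1 of the 13 was called, a Cyp1b1 probe set at 1.29 (limma adjusted p = 0.0478, 28.5% of all probe sets called). How many of all low-signal probe sets had a higher krill mean was not counted. The median signal of all non-control probe sets was 88.5 to 109 on control arrays. It was 81.2 to 126 on krill replicates 1, 3 and 6 and 170 to 205 on krill replicates 2, 4, 5 and 7.

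Of the 9 rises, 4 were among the brightest probe sets. Of the brightest 225 tested probe sets 5 were members, Cyp2c50, Cyp2d10, Cyp2e1, Cyp3a11 and Cyp3a25, and the median log2 change of all 225 was 0.80 as deposited and 0.09 with quantile normalization. Under quantile normalization 5 members were higher and 19 lower, where 21.5% and 24.1% of all tested probe sets were, 45.5% in all, and 4 of the 9 rises and 16 of the 16 falls kept their call. The rises that kept it were Cyp2c54, Cyp2c55, Cyp2c65 and Cyp2r1. The same probe sets were tested in both fits, and Cyp2c65 was among them through its krill arrays alone.

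**Figure D5:**
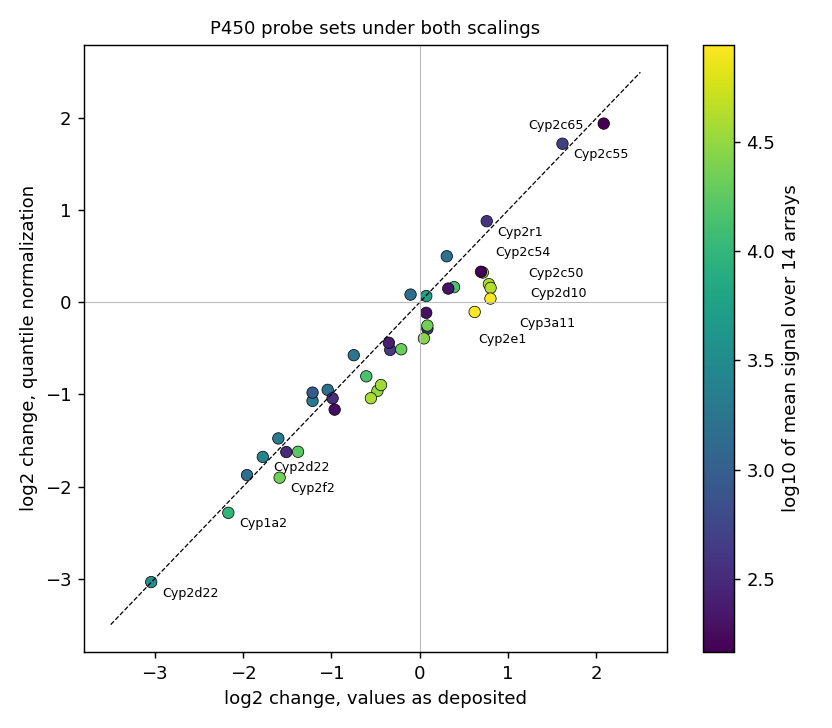
Log2 change of the 39 P450 probe sets above the mark with the values as deposited (x axis) and with quantile normalization (y axis; dashed, equal values; colour, log10 of the mean signal over 14 arrays). The brightest members lie below the dashed line, with Cyp3a11 at 0.80 and 0.041, and Cyp2d22, Cyp1a2 and Cyp2c55 lie close to it.

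The proteins that serve these enzymes were described from 6 lists, by 1 probe set a gene; 13 of 65 tested genes rose and 22 fell, where 20.8% and 25.2% of all tested probe sets did. Of 12 genes of electron supply and haem synthesis 2 rose, 4 fell and 6 did not pass. Alas1, the rate-limiting step of haem synthesis, gave 15726 ± 7174 on the control diet and 3472 ± 2676 on krill (mean ± SD, n = 7 each), a log2 change of -2.49 (moderated SE 0.49, limma adjusted p = 0.000643), and Cyb5r3, the reductase of cytochrome b5, changed by -2.20 (moderated SE 0.28, limma adjusted p = 2.95e-05); without krill replicates 2, 4, 5 and 7 they were still called lower, at -1.20 and -1.48. Cyb5a, the cytochrome b5 that aids P450 reactions, and Pgrmc1, a haem-binding P450 partner, rose by 0.81 and 0.65, and stood at 0.09 (limma adjusted p = 0.414) and -0.04 (limma adjusted p = 0.81) with quantile normalization. Cpox and Ppox, later enzymes of haem synthesis, changed by -1.34 and -0.70, and both were called lower. Por, the electron donor of all these P450s, has no probe set with a single symbol here and was not analysed.

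Among 9 tested xenobiotic sensors and partners, 1 was higher, 3 were lower and 5 missed the threshold. Ahr, the aryl hydrocarbon receptor, was called higher at 0.90 (moderated SE 0.24, limma adjusted p = 0.00582), but stood at 0.31 (limma adjusted p = 0.205) without krill replicates 2, 4, 5 and 7. Rxra, the common partner of CAR and PXR, was called lower at -1.82 (moderated SE 0.23, limma adjusted p = 3.08e-05), and at -1.70 without krill replicates 2, 4, 5 and 7. Nr1i2, which encodes PXR, and Nr1i3, which encodes CAR, stood at -0.35 (limma adjusted p = 0.111) and 0.23 (limma adjusted p = 0.402). The coactivators Ncoa1 and Ppargc1a changed by -1.13 and -0.81, both lower.

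Of 11 transcription factors of liver P450 genes 1 was called higher, 7 lower and 3 neither, and 0 were higher and 4 lower without krill replicates 2, 4, 5 and 7. Those 4, with all arrays, were Cebpb and Hlf, activators of liver genes, at -1.76 and -1.27, Nr2f2, a nuclear receptor, at -1.29 and Tef at -1.15. The largest fall of the list with all arrays was that of Nr0b2, at -1.84. It stood at -0.78 (limma adjusted p = 0.22) without krill replicates 2, 4, 5 and 7. The gene called higher was Nr1h4, at 0.40. Hnf4a stood at -0.56 (limma adjusted p = 0.0903). Of 9 growth hormone pathway genes, which set sex differences in P450 expression, 3 rose and 2 fell. They were Cux2, a female-biased factor, at 1.01, Ghr, the receptor, at 0.63 and Igf1 at 0.57, and Socs2 and Stat5b at -0.92 and -0.86. Without krill replicates 2, 4, 5 and 7, 2 were higher and 0 lower: Cux2 stood at 0.42 (limma adjusted p = 0.34), Socs2 at -0.51 (limma adjusted p = 0.347) and Stat5b at -0.60 (limma adjusted p = 0.0514). Ghr and Igf1 kept their calls there but stood at 0.15 (limma adjusted p = 0.363) and 0.22 (limma adjusted p = 0.289) with quantile normalization, and turned to -0.15 and -0.22 with scaling on the spike-ins. Among 3 tested male-biased P450 genes, Cyp2d9 and Cyp7b1 stood at -0.44 and -0.80 and did not pass, and Cyp4a12a, which is no member, was lower.

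Of 12 conjugating enzymes 4 rose, 2 fell and 6 did not pass. Sult1d1, a sulfotransferase, and Ugt2b1, a glucuronosyltransferase, rose by 1.65 and 1.15, and by 1.20 and 0.82 without krill replicates 2, 4, 5 and 7. The change farthest from 0 in this list was that of Gstm1, a glutathione transferase, which fell with no overlap, at -3.73 (moderated SE 0.40, limma adjusted p = 1.28e-05), and stood at -2.81 (limma adjusted p = 0.000581) without krill replicates 2, 4, 5 and 7. Tpmt, a thiopurine methyltransferase, was called lower at -1.07 and stood at 0.0042 (limma adjusted p = 0.99) without krill replicates 2, 4, 5 and 7. Ugt2b36 and Sult1a1 were called higher at 0.87 and 0.43; with quantile normalization they stood at 0.21 (limma adjusted p = 0.0819) and 0.14 (limma adjusted p = 0.367), and Sult1a1 at -0.36 with scaling on the spike-ins. Of 12 other oxidising and hydrolysing drug enzymes 2 rose, 4 fell and 6 did not pass, among them the aldehyde oxidase Aox3 at -2.26 and the flavin monooxygenase Fmo5 at -1.13, both lower. Adh1, the alcohol dehydrogenase, and Fmo1 were lower at -1.75 and -0.86, and stood at -0.44 (limma adjusted p = 0.0549) and -0.15 (limma adjusted p = 0.496) without krill replicates 2, 4, 5 and 7. Aldh1a1, the retinal dehydrogenase, was higher with no overlap, at 0.57, and Mgst1, a microsomal glutathione transferase, at 0.66; they stood at -0.069 (limma adjusted p = 0.634) and -0.10 (limma adjusted p = 0.275) with quantile normalization and at -0.22 and -0.12 with scaling on the spike-ins. With the medians of all 6 lists between -0.85 and 0.30, these counts describe the lists and were not tested as sets.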

How the data were processed

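Liver RNA of 14 mice was labelled with biotin as cRNA and put on Affymetrix arrays, 1 mouse per array, per the labels' protocols. The deposited values are linear signal intensities, 1 per probe set, made with MAS5 per the submitters' processing notes, which name no version. In this deposited table every array had the same mean once the lowest and highest 2% of probe sets were set aside, and the array medians differed. Such scaling lifts all probe sets of an array on which sample RNA hybridised weakly.

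The platform's gene table names 34958 probe sets with 1 symbol and 932 with several, and leaves 9160 unnamed here. All 52 member gene IDs were found in RefSeq's GRCm38.p6 table under the same symbol. Of the members 44 probe sets end in _at, 4 in _a_at and 4 in _s_at; the last can match transcripts of more than 1 gene, and P450 genes of a subfamily are alike enough that any may share signal. No probe sequences or detection calls were used here.

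Signal was taken as log2(signal + 16), which understates changes of dim genes. The 22518 non-control probe sets in the upper 50% by mean over all arrays entered the test, limma 3.58.1 under R 4.3.3 with lmFit and a trend in eBayes, krill against control, with no covariate. P-values were adjusted by Benjamini-Hochberg over all of them, with 0.05 as the threshold. Each gene is given by its probe set with the highest mean, others where they differ; arrays are described for called genes and a fixed panel. Tables and figures were made in Python 3.11.15 with numpy 2.4.6, pandas 2.3.3 and matplotlib 3.10.9. The spike-in level averages 18 hybridisation control probe sets, and the 3'/5' index averages the log2 3' to 5' ratios of actin and pyruvate carboxylase. Promoters were aligned globally in pairs (match 1, mismatch -1, gap opening -2, gap extension -0.5).

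The members, lists and alternatives were chosen with earlier results of these data known. The alternatives were pseudocounts of 1 and 64, quantile normalization, median centring, spike-in scaling, no filter or the upper 30%, 1 probe set or the mean per gene, no trend, weights per array, a block on the replicate number, both quality measures as covariates, and arrays left out.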

Additional observations from a re-analysis of the deposited data

Results flagged for a closer look

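In 2 of 78 groups of 7 arrays, a member's values in 1 diet, 1 array stood farther from the others than Dixon's 95% limit for its distance to the nearest value; chance gives about 1 in 20 groups. The signal of Cyp1a1 in control replicate 5 was 4638, against 41.3 to 77.2 in the other 6 control arrays. The signal of the brighter Cyp2j5 probe set in krill replicate 2 was 9822, against 18441 to 24166 in the other 6 krill arrays.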

How the results depend on the processing

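The 9 higher members became 5 with quantile normalization, 4 with median centring, 2 with spike-in scaling, 0 with the 3'/5' index or the spike-in level as covariate, and 5 without krill replicates 2, 4, 5 and 7. The 16 lower ones became 0 and 8 with these covariates. The 35 called genes of the pathway lists became 0 and 11. Spike-in scaling and median centring move every log2 change by a constant, -0.79 and -0.40. Spike-in scaling gave subfamily medians of -1.27 for Cyp2c, -1.23 for Cyp2d, -0.89 for Cyp2j and -0.72 for Cyp3a, and median centring -0.51 for Cyp2j and -0.33 for Cyp3a. The Cyp2d median was -1.21 in the upper 30% of signal, -1.08 with the spike-in covariate and -1.13 without the 4 krill arrays. For Cyp2j the last pair gave 0.17 and 0.24. The Cyp3a median was 0.69 without a filter and -0.55 in the upper 30%, where fewer members are tested.

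Of the 39 members, 13 changed sign with spike-in scaling, 8 with median centring, 6 with quantile normalization, 9 with the 3'/5' index, 6 with the spike-in covariate and 6 without the 4 krill arrays. Among members called with the deposited values or in the alternative, signs turned with spike-in scaling for Cyp2a12 (-0.70), Cyp2c50 (-0.0032), Cyp2c54 (-0.072), Cyp2d12 (-0.71), Cyp2d26 (-0.74), Cyp2e1 (-0.16), Cyp2r1 (-0.027) and Cyp3a44 (-0.093), and with quantile normalization for Cyp2d26 (-0.39) and Cyp2e1 (-0.10). With the 3'/5' index as covariate Cyp2c23 was at 0.11 and the brighter Cyp2u1 probe set at 0.17, and with the spike-in covariate Cyp2c70 at 0.023. The mean over the probe sets of Cyp2u1 stood at -0.59. It kept the sign of the brighter, at -1.51, and not that of the other, at 0.32. Except where a constant or fewer tested probe sets make the change, the cause was not tested.

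Leaving out 1 array at a time gave 8 to 9 higher and 13 to 17 lower members, 31 to 41 pathway genes, and medians of -0.57 to -0.41 for Cyp2c, -0.58 to -0.39 for Cyp2d, -0.21 to 0.01 for Cyp2j and 0.01 to 0.14 for Cyp3a; 21 of the 25 calls held in each and 0 reversed. The labels do not pair the mice by replicate number, and low correlations cannot exclude a pairing. With the diet means removed, same-numbered arrays correlated at -0.03 to 0.09, and 1 of 7 correlated best with its own number. With the number as a block 8 members were higher and 15 lower, and Cyp3a25 and Cyp3a44 no longer passed (limma adjusted p = 0.0541 and 0.0723). Without a signal filter, Cyp2c29, Cyp2c70, Cyp2e1, Cyp3a25 and Cyp3a44 lost their calls (limma adjusted p from 0.056 to 0.0854). Pseudocounts of 1 and 64 moved none of the 39 members across the threshold. Members near the signal mark, and all 13 below it, lack the signal over background to show a change of small size.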
